A study of Mus musculus with 30 samples.

Results

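Floor plate cells of the mouse midbrain, cut from tissue by laser capture microdissection, were compared between embryonic day 18 (E18) and embryonic day 13 (E13). Every captured library that the labels place at either age was taken, which gave 5 libraries at E18 and 5 at E13, or 10 of the 30 libraries of the series. The other libraries are 4 captures at E11, 6 captures at postnatal day 70 (P70) and 10 from cultured spheres. The captures at E11 and P70 entered the estimate of the spread and are given as levels, and the spheres were not used. Both ages carried the genotype Lmx1aCreERT2; R26TRAPC. Lmx1aCreERT2 is a tamoxifen-inducible recombinase expressed from Lmx1a, a transcription factor gene of the floor plate. It marks cells in which Lmx1a was active at induction, and their descendants. Captures without these alleles were not analysed here, and the sources used here do not give the time of induction. The title of the series concerns the timing of neurogenesis and of ependymal maturation, and E13 and E18 lie on either side of that change.

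Floor plate cells form the ventral midline of the developing neural tube, and in the midbrain its radial glia give rise to dopamine neurons. Proneural factors such as Neurog2 commit progenitors to neurons and switch on Notch ligands, which hold neighbouring cells in the progenitor state. Later, midline radial glia become ependymal cells, which line the ventricle and move cerebrospinal fluid with many motile cilia. Multiciliation is set off by the geminin-family coactivators Gmnc and Mcidas, which work with E2f4 or E2f5. They lead to Foxj1, Myb and Rfx factors, to amplification of centrioles, and to the genes of the ciliary shaft, the axoneme.

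Values are the deposited normalized values, called units here. They behave as reads scaled to gene length and library depth, so levels of different genes are on a per-length scale. Whole reads recovered behind them came to 3080309 to 4623994 per library at E13 and 2873195 to 3734392 at E18. A gene has values at an age if its mean at that age is 1 unit or more, which held for 12381 genes at E13 and 13340 at E18. Differences are in log2(units + 1), E18 minus E13, a scale that understates changes of low genes. A gene passed when its limma p-value, adjusted by Benjamini-Hochberg over the 11797 genes listed at both ages, was under 0.05. Of these, 2644 were higher at E18 (22.4%), 2948 were lower (25.0%) and 6205 did not pass, with a median difference of -0.04. All 5 libraries of E18 lay above all 5 of E13 for 1992 genes (16.9%), and the reverse held for 2465 (20.9%). Each library correlated with those of its own age at r of 0.941 to 0.976 at E13 and 0.899 to 0.97 at E18, against 0.771 to 0.853 between ages, across 10721 genes, which are not independent replicates. No label states that libraries came from separate animals, so the p-values measure only the spread between these libraries, and shared animals would make them too small.

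Gmnc and Mcidas, the coactivators that set off multiciliation, had values at E18 alone of the compared ages. So did 11 of 31 fate regulators in all, beside 1543 of the 13340 genes with values at E18. Of those 11, 3 had values at E11, among them Myb with a mean of 2.68 units. The other 20 regulators had values at both ages, and 8 rose and 6 fell, with a median log2 difference of 0.33. Over all genes tested, 22.4% rose and 25.0% fell. In captures of whole tissue, fewer cells of a type and less RNA per cell cannot be told apart, and this holds for all differences below. Mcidas, the geminin-family coactivator on chromosome 13 (GRCm38 chr13:112993845-113000394), measured 15.6, 4.79, 3.3, 5.93 and 2.87 units in E18 libraries 1 to 5. Its relative Gmnc measured 2.35, 0, 0.208, 1.96 and 0.859 units, close to the listing floor. Library 1 was the highest for both, and without it the mean of Gmnc was 0.756 units, below the floor.

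Myb, a transcription factor of early multiciliated cells, measured 21.8, 4.98, 2.99, 9.26 and 4.58 units at E18. Trp73, which encodes the p73 factor, had a mean of 2.53 ± SD 1.89 units (n = 5), and Foxn4 measured 20.3, 6.02, 5.68, 7.56 and 3.43. Among genes that amplify centrioles, Ccdc67 (now Deup1), of the deuterosome on which new centrioles form, measured 38.6, 15.0, 14.3, 22.5 and 11.6 units. Ccno, a cyclin-like protein of that step, measured 33.3, 16.4, 3, 24.4 and 8.72 units, and Cdc20b, of the same locus, measured 12.3, 2.18, 2.06, 2.42 and 1.22. The values of Cdc20b rest on only 9, 2, 2, 2 and 1 recovered reads, so its level and its listing are uncertain. Mcidas, Ccno and Cdc20b lie in 1 stretch of the chromosome, with Ccno at chr13:112987802-112990777 and Cdc20b at chr13:113035111-113091195. All 3 were highest in library 1.

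Foxj1 (chr11:116330704-116335399), the factor that drives motile cilium genes, measured 7.39, 5, 11.9, 7.99 and 12.7 units in E13 libraries 1 to 5. At E18 it measured 179, 75.8, 12.8, 34.9 and 46.9 units. The groups touched without overlapping, since library 3 of E18 lay next to library 5 of E13. The log2 difference was 2.40 (SE 0.49, limma adjusted p = 0.000328), and the mean at E18 was 69.9 ± SD 65.2 units (n = 5), or 42.6 without library 1. Rfx2 and Rfx3 encode factors that bind the X-box of ciliary promoters. Rfx2 measured 5.21, 4.45, 4.01, 4.34 and 4.67 units at E13 and 50, 33.9, 31.7, 39.7 and 34.6 at E18, with no overlap (log2 difference 2.80, SE 0.20, limma adjusted p = 1.75e-10). Rfx3 rose from 7.59 ± SD 3.47 to 42.8 ± SD 15.3 units (n = 5 each; log2 difference 2.39, SE 0.27, limma adjusted p = 3.01e-07). Rfx1 and Rfx4 rose by 1.72 and 1.19, and Ulk4, a kinase-like protein of ependymal cilia, by 2.85.

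The regulators that fell act in cell division as well. Gmnn, the inhibitor of DNA replication that gives the geminin family its name, measured 40.9, 22, 46.7, 76.5 and 48.6 units at E13 and 0.83, 0.882, 9.57, 4.90 and 4.67 at E18 (log2 difference -3.43, SE 0.49, limma adjusted p = 6.73e-06). Cep78, a centrosome protein, and Tfdp1, the partner of E2f factors, fell by 1.84 and 1.36. E2f4 and E2f5 differed by -0.73 and -0.91 and both passed. Plk4, the kinase that starts centriole duplication in dividing cells, overlapped between ages at 2.42 to 6.14 units and 1.23 to 3.34 units. Its difference of -0.78 (limma adjusted p = 0.0193) was lost without E13 library 3 (-0.67) or E13 library 4 (-0.66). Stil and Sass6, which assemble the centriole cartwheel, differed by 0.03 and -0.13 and did not pass.

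Levels at P70 are given as a description, with no test. Of the 11 regulators with values at E18 alone of the compared ages, 5 were not listed at P70, among them Mcidas and Cdc20b. Ccno had a mean of 17.2 units at E18 and 2.03 at P70, and Ccdc67 had 20.4 and 8.51, whereas Foxj1 had 69.9 and 239 and Trp73 had 2.53 and 17.2. The 17 dynein genes and the 39 other axoneme genes that passed as higher at E18 all had a still higher mean at P70.

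**Figure D1:**
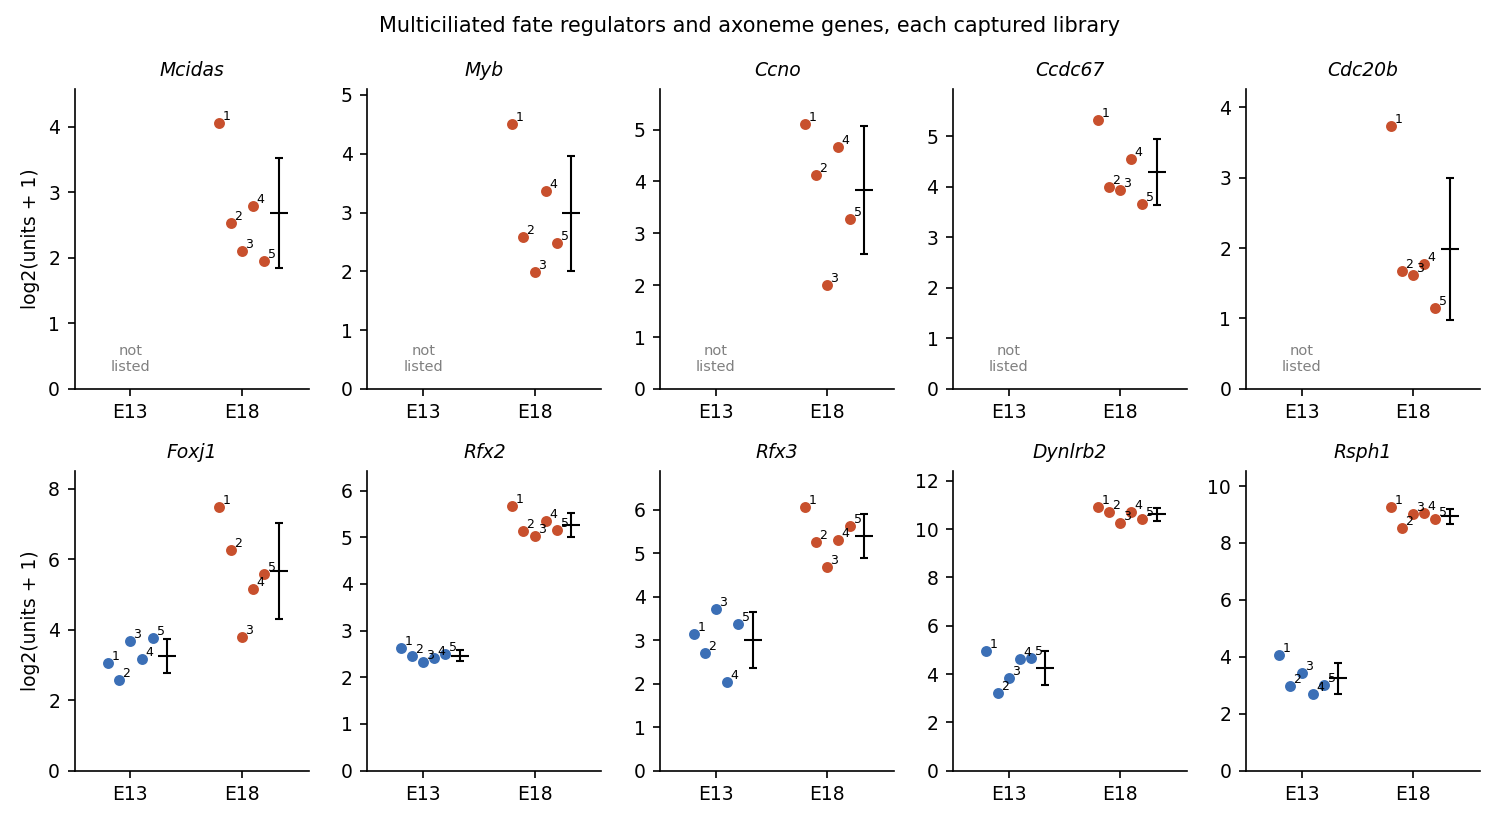
Each panel plots one gene, with log2(units + 1) on the vertical axis and age on the horizontal axis. Points are single captured libraries, numbered by replicate, and the bars are the mean ± SD of the 5 libraries of an age. Mcidas, Myb, Ccno, Ccdc67 and Cdc20b were not listed at E13, library 1 is the highest at E18 for these 5 genes and for Foxj1, Rfx2 and Rfx3, and Rsph1 and Dynlrb2 lie far apart between ages with little spread.

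The motor and scaffold proteins of motile cilia rose almost without exception. The lists of axonemal dyneins and of other axoneme proteins hold 121 genes together: 62 were tested, 56 rose, 1 fell and 5 did not pass, with a median log2 difference of 3.18. A further 49 had values at E18 and none at E13. A gene that is listed at E18 alone had to be low at E13, so those 49 are a description and carry no test. The other 10 had values at neither age. Among all genes tested 22.4% were higher, and the share of the tested members was 56 of 62. The counts of 17 dynein and 39 other axoneme genes that rose were the same when E18 libraries 1 and 3 were both left out, an alternative chosen after seeing the data.

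Dynein arms are the motors that bend the axoneme. Of 9 heavy chain genes with values, 8 were listed at E18 alone and Dnah1 rose by 1.92. Dnah9 and Dnah5, of the outer arm, had means of 15.6 and 3.44 units, and Dnah9 ranged over 14.1 to 19.2. Dnali1, a light intermediate chain of inner arms, measured 1.36, 1.16, 2.18, 1.32 and 2.16 units at E13 and 111, 62.6, 38.4, 63.7 and 54.6 at E18 (log2 difference 4.60, SE 0.23, limma adjusted p = 6.63e-12). Dnaic1 (now Dnai1), an intermediate chain of the outer arm, measured 1.29 to 3.67 units at E13 and 26.0 to 38.1 at E18. Dynlrb2, a light chain gene at chr8:116504974-116515915, measured 29.7, 8.24, 13.3, 23.8 and 24.2 units at E13 and 1910, 1690, 1230, 1670 and 1370 at E18. The lowest E18 library of each of these 3 genes was above the highest of E13.

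Dynein arms are preassembled in the cytoplasm and docked on the doublets. Zmynd10, an assembly factor, measured 1.37 to 3.70 units at E13 and 59.8 to 104 at E18 (log2 difference 4.65, SE 0.28, limma adjusted p = 1.76e-11). Ccdc114 (now Odad1), of the docking complex, rose by 4.96 and Dyx1c1 (now Dnaaf4) by 3.29. Dnaaf1 had values at E18 alone, at 13.8, 7.45, 16.6, 9.70 and 6.28 units. The assembly factor Dnaaf2 was the exception and fell by 1.09 (SE 0.32, limma adjusted p = 0.00696), although library 1 of E18, at 21.4 units, lay inside the E13 range of 19.5 to 26.6. Dnal4, a light chain, and 9230110C19Rik (now Cfap300), an assembly factor, did not pass, and Dnal4 differed by 0.08.

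Radial spokes and the central pair regulate the beat. Rsph1, a spoke head protein (chr17:31255019-31277383), measured 15.7, 6.86, 9.88, 5.48 and 7.13 units at E13 and 608, 371, 514, 530 and 456 at E18, so the lowest E18 library was far above the highest of E13. Rsph4a, of the same spoke head, was listed at E18 alone, at 70.4, 80.2, 60.2, 73.3 and 68.9 units, one of the most even series among these genes. Rsph9 measured 36.4 to 55.6 units at E13 and 168 to 375 at E18, a rise of 2.65 from a level that was already well above the floor. Lrrc23, of the spoke, ranged over 1 to 3.35 and 84.9 to 453 units. The stalk proteins Rsph3a and Rsph3b differed by 0.10 and 0.46 and did not pass. For the central pair, Spag6 (now Spag6l) rose by 4.38 and Hydin was listed at E18 alone with a mean of 7.05 units. Spag6 has a near-identical copy whose reads may have been divided, so its level is uncertain.

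Of the doublet, regulatory complex and ruler proteins, 31 of 32 tested rose. Ppp1r32, an axonemal protein, measured 1.09, 1.40, 1.40, 1.18 and 1.07 units at E13 and 322, 218, 154, 273 and 193 at E18 (log2 difference 6.67, SE 0.19, limma adjusted p = 4.87e-15). Meig1, known from sperm, ranged over 1.44 to 4.86 units at E13 and 144 to 310 at E18. Ccdc39, the ruler that sets the spacing of axonemal complexes, rose by 2.47, the tektin Tekt1 by 3.55 and 1110017D15Rik by 5.88. Gtl3 (now Cfap20) differed by 0.16 and did not pass. Tppp3, a microtubule protein of motile cilia, started high at 189 to 388 units at E13 and measured 732 to 1060 at E18 (log2 difference 1.69). Tmem212 (chr3:27866066-27896368), a membrane protein of ciliated cells, measured 1820, 2780, 1660, 2670 and 1820 units at E18, the highest mean of all genes listed at E18 and not at E13. Tubulins, which build the microtubules, did not move as one: Tubb4b, an isotype of cilia, rose by 1.79 from 150 to 295 units to 602 to 852, while Tuba1c fell by 2.20 and Tubb5, which has similar copies, by 1.00.

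The genes that carry cargo along cilia and gate the ciliary base changed less and were already expressed at E13. Of 56 genes of intraflagellar transport, the BBSome and the transition zone, 55 were listed at both ages. Of these, 42 rose, 1 fell and 12 did not pass (median 1.14), beside 22.4% higher and 25.0% lower over all genes tested. Ift88, of the transport complex, measured 5.67, 8.60, 7.28, 7.65 and 6.91 units at E13 and 24.3, 19.9, 21.9, 28.1 and 21.2 at E18 (log2 difference 1.55, SE 0.17, limma adjusted p = 2.06e-07). Ttc30b rose by 2.58 and Ift140 by 1.77, both without overlap between ages. Tmem107, of the transition zone, measured 56.9 to 100 units at E13 and 388 to 709 at E18 (log2 difference 2.70). Ift52 was the single member lower at E18, at -0.52 (limma adjusted p = 0.0352), and was lost under 10 of the 20 alternatives, among them median-of-ratios scaling (-0.46) and the fits without E13 library 3, 4 or 5 or E18 library 1, 2 or 3 (-0.41 to -0.53).

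Promoters of these genes are shown because the Rfx factors rose together with the ciliary genes. The promoter table of RefSeq (GRCm38.p6) gives 250 bases before to 50 after each start site, and 95 of the 111 motile axoneme genes in the captured table and 49 of the 56 transport and transition zone genes were matched. The X-box was searched on both strands as GTNNCC, any 3 bases, then GNAAC, where N is any base. It was present in 18 of 108 axoneme promoters (16.7%) and 14 of 55 transport and transition zone promoters (25.5%), against 2.17% of all 32851 promoters. The X-box was also present in 4 of 47 promoters of mitosis genes (8.51%), which fell, and in none of 45 replication promoters. Its share was 4.8% in promoters of all genes higher at E18 and 1.89% in those of all genes lower. The forkhead letters GTAAACA were present in 6.48% of axoneme promoters, in none of the 55 transport and transition zone promoters, in 8.51% of mitosis promoters and in 3.65% of all. A match of letters is a description and shows neither binding nor a cause. In the stretches below, written 5′ to 3′ on the strand of the gene, capitals mark the X-box. They lie at chr3:106001542-106001581 (minus strand) for Pifo, chr17:25471417-25471456 (plus) for Tekt4, chr1:69826854-69826893 (plus) for Spag16, chr9:22002642-22002681 (minus) for Ccdc151, chr3:36613484-36613523 (minus) for Bbs7 and chr5:136908104-136908143 (plus) for Ift22. Pifo rose by 6.30, Tekt4 by 4.97, Spag16 by 2.66, Ccdc151 (now Odad3) by 2.45, Ift22 by 1.29 and Bbs7 by 1.16. The stretches are examples from more matches, and Ttc26 and Ift57, which also hold an X-box, differed by 0.53 and 0.46.
Pifo: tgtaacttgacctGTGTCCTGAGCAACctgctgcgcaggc
Tekt4: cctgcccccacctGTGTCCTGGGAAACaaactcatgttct
Spag16: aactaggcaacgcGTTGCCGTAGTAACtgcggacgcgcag
Ccdc151: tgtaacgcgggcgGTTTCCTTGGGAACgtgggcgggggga
Bbs7: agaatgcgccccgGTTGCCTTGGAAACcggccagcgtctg
Ift22: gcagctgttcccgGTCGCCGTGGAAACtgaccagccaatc

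**Figure D2:**
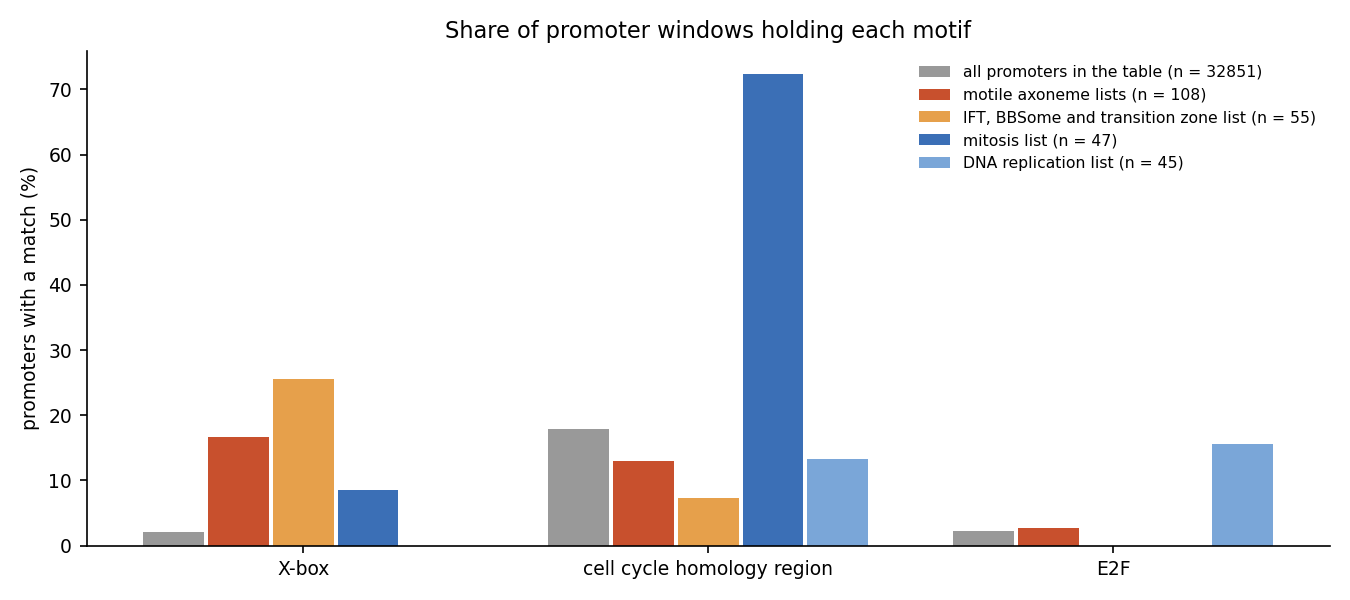
Bars give the percent of promoters that hold each motif, for the gene lists named in the key and for all promoters in the table, with the vertical axis starting at 0. The X-box was found in 25.5% of transport and transition zone promoters, and the letters of the cell cycle homology region in 72.3% of mitosis promoters against 17.9% of all.

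Ependymal genes rose as well, though not all of them. Their list also holds Dynlrb2, counted above with the dyneins. Of 28 ependymal genes, 22 were tested, 14 rose, 2 fell and 6 did not pass (median 2.07), and 5 were listed at E18 alone. Over all genes tested, 22.4% rose and 25.0% fell. Mia (chr7:27179742-27181157), a small secreted protein, measured 21.4, 15.9, 14.4, 23.8 and 22.4 units at E13 and 2920, 3660, 2410, 3170 and 2430 at E18, a log2 difference of 7.16 and the largest of all genes named by the rule. Pdyn, which encodes the opioid precursor prodynorphin, is named here for the size of its rise and not as an ependymal marker. It measured 3.14, 1.19, 1.47, 0 and 0.911 units at E13 and 150, 273, 238, 461 and 324 at E18 (log2 difference 7.0, SE 0.47, limma adjusted p = 6.44e-10). For both, the highest E13 library stayed below 24 units and the lowest E18 library was at 150 or above.

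Dbi, which encodes an acyl-CoA binding protein of glia, measured 1620 to 3660 units at E13 and 14000 to 23500 at E18 (log2 difference 3.15). Calml4, a calmodulin-like protein, rose by 3.58 and Rarres2, which encodes chemerin, by 5.83. S100b, a calcium-binding protein of ependyma and glia, was listed at E18 alone, at 59.1, 29.6, 13.2, 19.1 and 29.7 units. Sspo, which encodes the SCO-spondin of Reissner's fibre, measured 9.69 units in library 1 of E18 and 0.152 to 0.437 in the other 4, so its listing rests on that library. Cd24a, a surface protein used to sort ependymal cells, measured 456 to 780 units at E13 and 414 to 553 at E18 and did not pass (-0.23). Vim, an intermediate filament of radial glia and ependyma, fell by 0.78 and Cdh2, the N-cadherin of their junctions, by 1.20. The call of Vim was lost under quantile normalization (-0.32).

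Astrocyte genes rose in 25 of 29 tested (median 2.18), where 22.4% of all genes tested rose and 25.0% fell. A further 1 fell and 3 did not pass, and 6 more were listed at E18 alone. Many are shared with ependyma and radial glia. Sparcl1, a secreted matrix protein, measured 40.8, 21.9, 22.8, 16.1 and 17 units at E13 and 2210, 2050, 1540, 2100 and 1630 at E18 (log2 difference 6.33, SE 0.24, limma adjusted p = 1.1e-14). The metallothionein Mt1 rose from 59.7 to 116 units to 1340 to 3210, and the water channel Aqp4 from 2.66 to 5.55 units to 13.4 to 27.0. Aldoc, the aldolase of astrocytes, rose by 3.86. Gfap, an intermediate filament of mature astrocytes, measured 5.60 units in library 1 of E18 and 0.224 to 1.18 in the rest, with a mean of 0.656 without library 1. Slc1a2, a glutamate transporter of astrocytes, differed by 0.23 and Aldh1l1 by -0.32, and neither passed. Fgfr3 was lower by 1.30 (limma adjusted p = 0.0237) but reached 79.2 units in library 1 of E18, above every E13 library, and did not pass when E13 library 1 or 3 or E18 library 3 or 4 was left out (-1.18, -1.13, -1.14 and -0.98).

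Against 22.4% higher and 25.0% lower over all genes tested, radial glia genes went both ways. Of 28 tested, 11 rose, 12 fell and 5 did not pass (median -0.52). Those that fell include Nes, the filament protein nestin, at 27.4 to 39.5 units at E13 and 5.96 to 8.92 at E18 (log2 difference -2.06, SE 0.32, limma adjusted p = 1.95e-05). Fabp7, a fatty acid binding protein and one of the most abundant genes of E13 radial glia, measured 12300, 5910, 9170, 8380 and 6570 units at E13 and 2860, 3030, 3740, 3620 and 2810 at E18, with no overlap (log2 difference -1.36). Those that rose include the glutamate transporter Slc1a3 (1.51), Ttyh1 (1.92) and Mfge8, a bridge protein of phagocytosis, from 26.4 to 53.3 units to 196 to 429 (2.93). Sox2, the progenitor factor, was at 31.2 to 69.1 units at E13 and 46.1 to 95.1 at E18 and did not pass (0.55, limma adjusted p = 0.102), although it did under 5 of the 20 alternatives, among them a weight per library (0.56), quantile normalization (0.74) and the fits without E13 library 1 (0.69) or E18 library 3 (0.68).

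**Figure D3:**
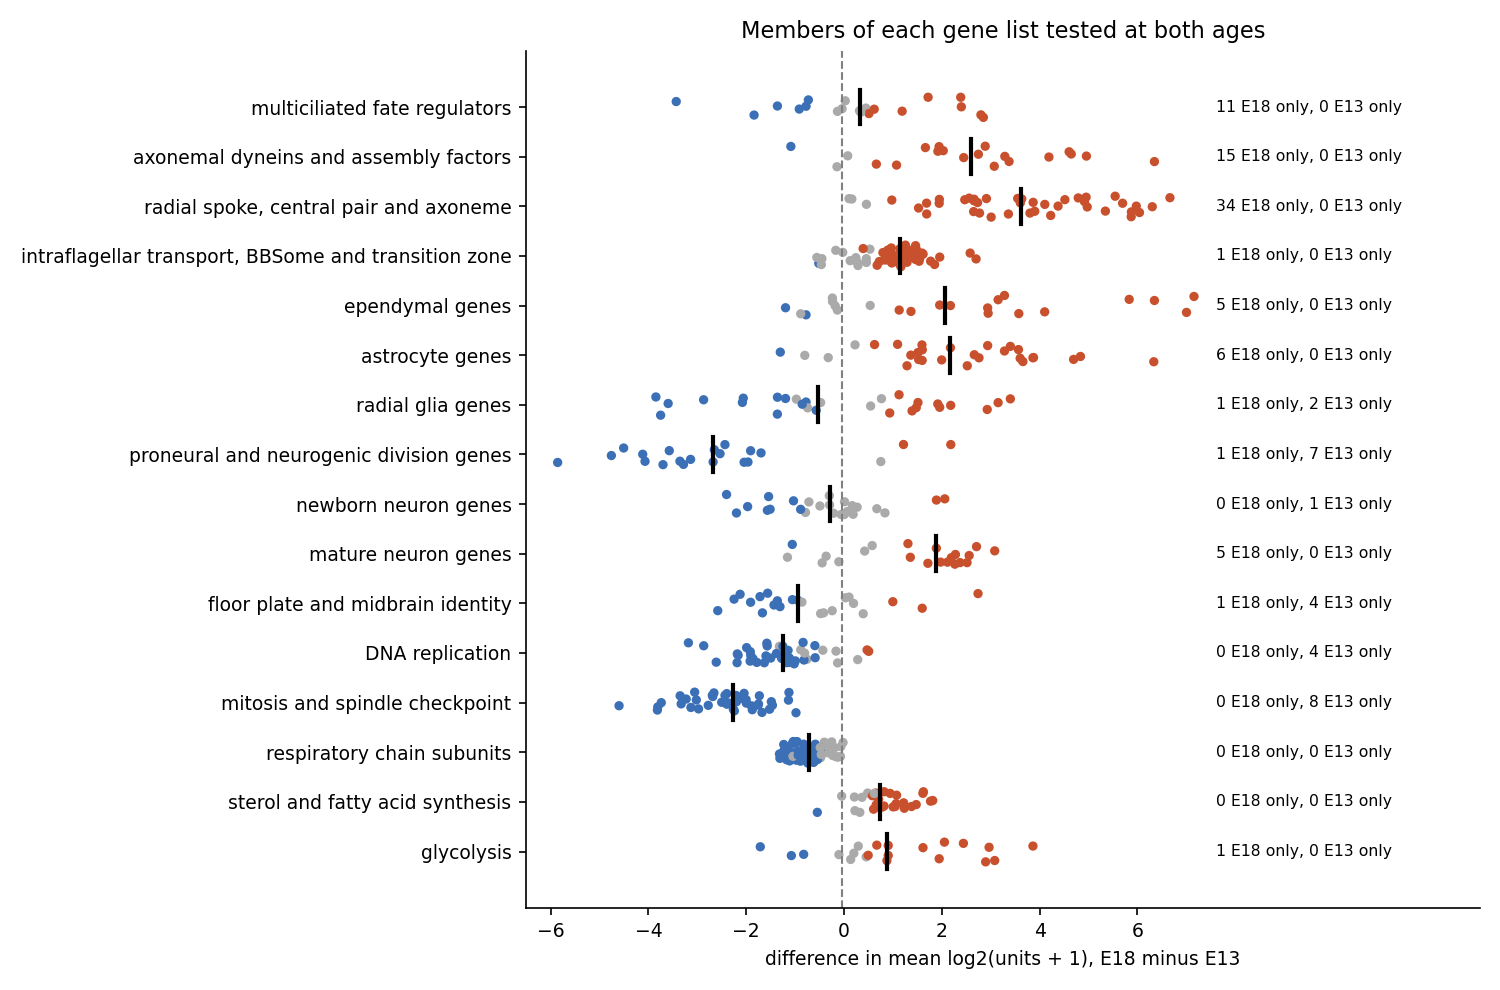
Each point is one gene tested at both ages, placed by its difference in mean log2(units + 1), E18 minus E13, in the row of its list. Orange points passed as higher, blue as lower and grey did not pass, the black bar is the list's median, the dashed line is the median of all genes tested at -0.04, and the text at the right counts members listed at one age alone. The axoneme row has its median at 3.62 and the mitosis row at -2.26, and radial glia genes spread to both sides.

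Proneural genes fell or left the table. Of 32 genes of neurogenic divisions, 21 were tested, 18 fell, 2 rose and 1 did not pass (median -2.68), and 7 were listed at E13 alone. Of all genes tested, 25.0% fell and 22.4% rose. All libraries of E13 lay above all of E18 for the 18 that fell, beside 20.9% of all genes tested. Neurog2 (chr3:127633135-127635631) measured 119, 157, 188, 270 and 313 units at E13 and had values at neither E18 nor P70. It was higher in E13 libraries 4 and 5 than in libraries 1 and 2, and so were the mitosis genes below.

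Factors of the next step toward a neuron fell as well. Neurod1 measured 24.4 to 38.8 units at E13 and 0.19 to 2.09 at E18 (log2 difference -4.07), Nhlh2 fell by 3.57, Ebf2 by 4.12 and Insm1 by 1.70. Nhlh1 and Neurod4 were listed at E13 alone with means of 19.1 and 2.71 units. Neurog1 was listed at neither age, though it had a mean of 10.3 units at E11. Hepacam2, a surface protein of neurogenic progenitors, measured 40.4 to 65.5 units at E13 and 0 to 3.71 at E18 (log2 difference -4.50, SE 0.37, limma adjusted p = 3.65e-08).

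The Notch ligands that proneural factors switch on fell with them. Dll1 measured 26.5, 22.8, 26.6, 29.4 and 33.7 units at E13 and 4.36, 2.11, 3.86, 3.93 and 3.87 at E18, and Dll3 fell by 3.14. Mfng (chr15:78755882-78773475), a fringe enzyme that adds sugar to Notch, measured 89.0, 92.1, 142, 184 and 178 units at E13 and 1.16, 1.16, 1.53, 1.03 and 1.55 at E18. Its log2 difference was -5.85 (SE 0.46, limma adjusted p = 1.05e-09), the largest fall after the embryonic globin Hbb-y, and no E18 library exceeded 2 units. The Notch targets Hes5, Nrarp and Hey1 fell by 3.75, 2.85 and 1.5, and Hes1 did not pass (-0.97, limma adjusted p = 0.0571), although it did under 6 of the 20 alternatives, among them the fits without E13 library 2 (-1.28) and without E18 library 1 (-1.14) or 4 (-1.11). The pathway as a whole went both ways, with 7 of 32 tested members higher, 8 lower and 17 not past the threshold (median -0.06), close to the shares over all genes tested (22.4% higher and 25.0% lower). The receptor Notch2 rose by 1.75 although E13 library 1 stood at 57 units, against 8.10 to 18 in the others and 39.1 to 122 at E18. Notch1 and the ligand Jag1 did not pass (-0.48 each), and Dtx1, a modulator of the receptor, rose from 2.05 to 8.22 units to 26.1 to 50.7.

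Genes of cell cycle exit divided. Cdkn1c, the p57 inhibitor of neurogenic divisions, measured 260, 293, 279, 379 and 418 units at E13 and 9.95, 8.38, 19.7, 7.45 and 12.2 at E18 (log2 difference -4.76, SE 0.27, limma adjusted p = 6.51e-12). Cdkn1a (p21) measured 2.44 to 6.79 units at E13 and 8.83 to 30.0 at E18, a rise of 2.18. Cdkn1b (p27) was higher by 1.22 (limma adjusted p = 0.0165) with overlapping groups, since E13 library 1 stood at 70.8 units. The call was lost without E13 library 3 or 4 (1.02 in both cases).

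Most genes of mitosis and of replication fell. All 41 mitosis genes listed at both ages fell, by 0.98 to 4.60 with a median of -2.26, and 8 more, Mki67 among them, had values at E13 and none at E18. Among all genes tested 25.0% were lower. Under quantile normalization, which needs values at all 4 ages, 22 were called lower. Ube2c, a ubiquitin enzyme of mitotic exit, measured 177, 145, 286, 371 and 396 units at E13 and 12.5, 8.42, 5.29, 9.07 and 15.4 at E18. Cdk1, the mitotic kinase, measured 33.2 to 96.8 units at E13 and 7.29 to 12.7 at E18, and Top2a, which untangles chromosomes, 18 to 32.2 and 3.32 to 6.26. None of these 3 overlapped between ages, and none was at 0 at E18. Library 4 of E13 was the highest for 33 of 49 mitosis genes, where it was highest for 18.7% of all genes listed at E13.

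Replication genes fell less far: 31 of 41 tested fell, 2 rose and 8 did not pass (median -1.25), and 4 were listed at E13 alone. Mcm2, of the replicative helicase, measured 26.1, 25.6, 28.7, 35.2 and 45.5 units at E13 and 3.56, 2.02, 1.07, 3.93 and 3.16 at E18. Pcna, the sliding clamp, fell by 1.63 and Rrm2, of nucleotide synthesis, by 1.99, to 9.98 to 13.5 units. The 2 that rose, Rpa1 (0.51) and Rfc1 (0.47), overlapped between ages and also serve DNA repair. Both calls were lost without E13 library 1 (0.43 and 0.42) or 2 (0.41 and 0.4) or E18 library 1 (0.46 and 0.44) or 4 (0.45 and 0.44), Rpa1 also without E13 library 3 (0.49), and Rfc1 also without E13 library 4 (0.45) or E18 library 5 (0.45). Of 16 G1 genes tested, 7 fell, 2 rose and 7 did not pass (median -0.64). For the replication and G1 counts alike, 25.0% of all genes tested were lower and 22.4% higher. Cdk4, the G1 kinase, measured 1070 to 1570 units at E13 and 180 to 211 at E18 and fell by 2.76 (SE 0.13, limma adjusted p = 4e-13). Ccnd2 fell by 1.59 and Ccnd1 by 0.87.

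Mitosis promoters are known for the cell cycle homology region (CHR), whose letters TTTGAA were searched on both strands. They were present in 34 of 47 mitosis promoters (72.3%, 42 of 50 genes matched), 13.3% of replication promoters and 17.9% of all promoters, where a motif this short is common. The E2F letters TTCCCGCC were present in 7 of 45 replication promoters (15.6%, 37 of 45 genes matched), in none of the 47 mitosis promoters and in 2.19% of all. In the stretches below capitals mark the CHR letters, or their reverse complement in Ube2c, and the E2F letters in Rrm1. They lie at chr2:164769887-164769918 (plus strand) for Ube2c, chr10:69352965-69352996 (minus) for Cdk1, chr9:70421703-70421734 (minus) for Ccnb2 and chr7:102441615-102441648 (plus) for Rrm1. Ube2c fell by 4.60, Ccnb2 by 3.13, Cdk1 by 2.40 and Rrm1 by 1.57. The stretches are examples from more matches, and Uhrf1 and Chaf1a, which also hold the E2F letters, differed by -0.82 and 0.28.
Ube2c: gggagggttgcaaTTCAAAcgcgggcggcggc
Cdk1: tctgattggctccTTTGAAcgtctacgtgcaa
Ccnb2: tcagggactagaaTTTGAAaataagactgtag
Rrm1: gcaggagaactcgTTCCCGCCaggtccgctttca

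**Figure D4:**
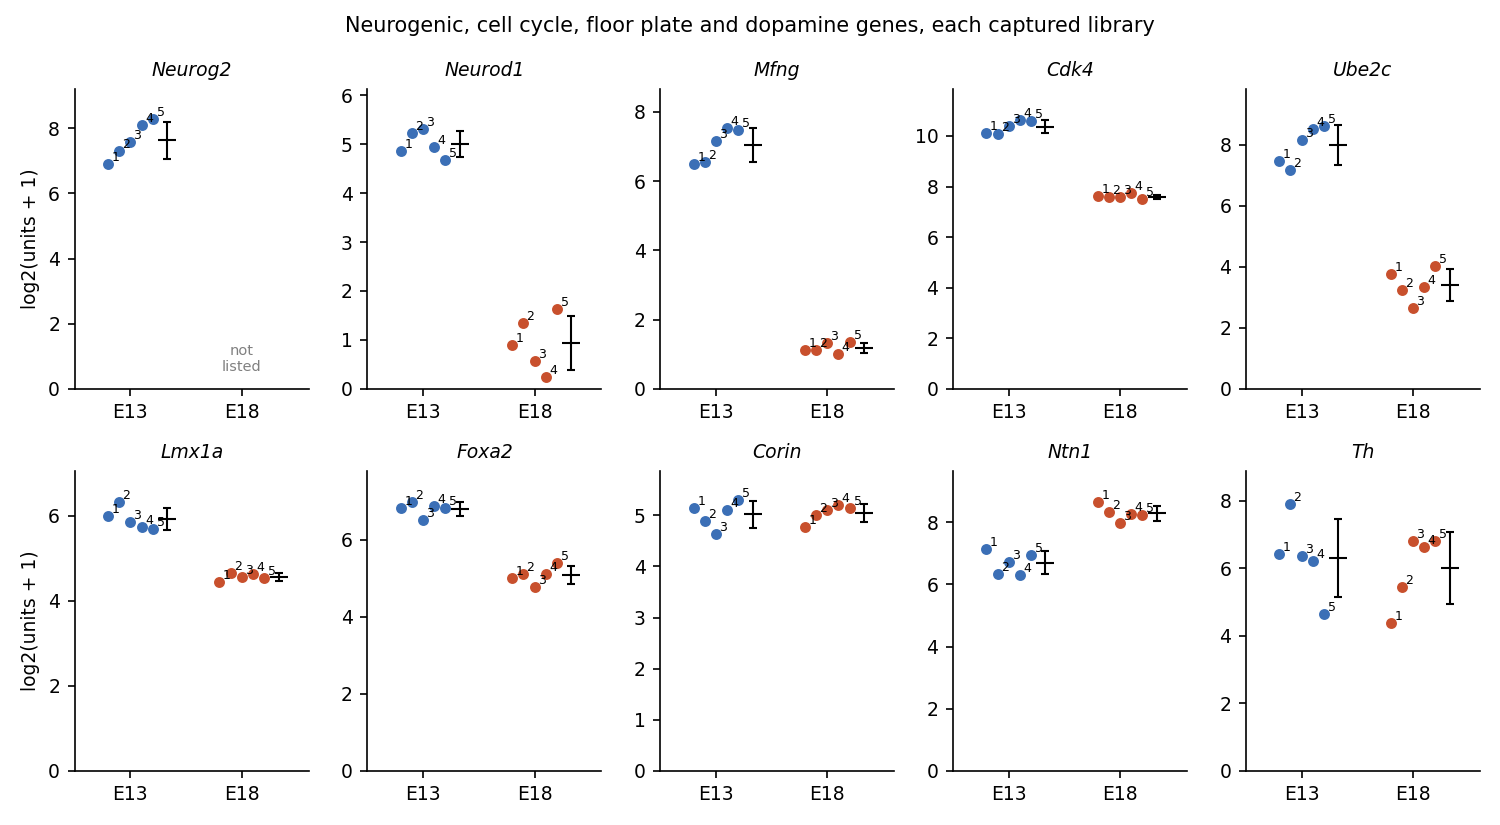
Each panel plots one gene, with log2(units + 1) on the vertical axis and age on the horizontal axis. Points are single captured libraries, numbered by replicate, and the bars are the mean ± SD of the 5 libraries of an age. Neurog2 was not listed at E18, Neurod1, Mfng, Cdk4, Ube2c, Lmx1a and Foxa2 do not overlap between ages, Corin overlaps throughout, Ntn1 is higher at E18 and Th spreads widely at both ages.

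Genes that define the floor plate and midbrain were in part lower at E18. Of 32, 23 had values at both ages and were tested: 12 fell, 3 rose and 8 did not pass (median -0.95). Of all genes tested, 25.0% fell and 22.4% rose. Another 4 members were listed at E13 alone, 1 at E18 alone and 4 at neither. Lmx1a (chr1:167689237-167848741), the gene whose promoter drives the recombinase, measured 62.2, 79, 57.2, 52.5 and 50.5 units at E13 and 20.7, 24.2, 22.4, 23.7 and 22 at E18 (log2 difference -1.36, SE 0.27, limma adjusted p = 0.000259). Foxa2, the master factor of the floor plate, measured 112, 125, 90.5, 116 and 112 units at E13 and 31.2, 33.4, 26.4, 33.6 and 41.5 at E18 (log2 difference -1.72). Both were even within an age and separate between ages, whereas Foxa1 overlapped and did not pass (-0.48, limma adjusted p = 0.143), but did when the E13 and E18 libraries were fitted alone (-0.48, limma adjusted p = 0.0442, range over the alternatives 0.0442 to 0.43).

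Corin, a surface protease used to sort floor plate cells, measured 34.4, 28.6, 24, 33.4 and 38.6 units at E13 and 26.2, 31.3, 33.4, 36 and 34.3 at E18. The ages overlapped throughout, with a difference of 0.03 (SE 0.20, limma adjusted p = 0.921). Otx2, of midbrain identity, fell by 2.25 and En1 by 1.67, from 89.0 to 130 units to 8.36 to 71.2. En1 was lowest in E18 library 1 and did not pass when libraries 1 and 3 were both left out (-1.09). Nkx2-2, a ventral factor also used by oligodendrocyte precursors, rose from 0.733 to 2.49 units to 8.29 to 26.3. Msx1 did not pass (0.10), and its E13 libraries ran from 5.56 to 47.7 units.

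The secreted signals of the midline moved apart. Shh measured 57.8, 28.4, 31, 31 and 34.5 units at E13 and 10.7, 13.9, 7.72, 20.2 and 19.9 at E18 (log2 difference -1.31, SE 0.26, limma adjusted p = 0.000529). Ntn1, the netrin that attracts commissural axons, measured 141, 80, 104, 78.9 and 124 units at E13 and 406, 319, 253, 309 and 299 at E18 (log2 difference 1.6, SE 0.21, limma adjusted p = 2.38e-06). Spon1, the matrix protein F-spondin, went from 128 to 226 units to 30.0 to 62.3 (-1.91). No library of one age reached the range of the other for these 3 genes. The netrin receptor Dcc fell by 1.81, while the ephrin Efnb3, known from the midline, rose from 23.4 to 41.5 units to 309 to 474 (3.56) and the semaphorin Sema6d rose by 3.30. Of 36 axon guidance genes tested, 10 rose (6 without E13 library 4), 8 fell and 18 did not pass (median -0.17). The shares over all genes tested were 22.4% higher and 25.0% lower.

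Ptch1, both a target of Shh and its receptor, measured 0.906 to 4.52 units at E13 and 1.15 to 6.88 at E18 and did not pass (0.33), and Gli1, Gli2 and Gli3 were listed at neither age. Of 9 hedgehog genes tested, the co-receptor Boc rose by 2.43, Shh, Hhat and Cdon were lower, and 5 did not pass. These counts stand beside 22.4% higher and 25.0% lower over all genes tested. The call of Hhat was lost without E13 library 4 or 5 (-0.85 and -0.69) or E18 library 2 or 5 (-0.85 each).

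Of 25 Wnt genes tested, 5 rose, 9 fell and 11 did not pass (median -0.31), beside 22.4% higher and 25.0% lower among all genes tested. A further 8 were listed at E13 alone and 2 at E18 alone. Lef1, a factor and target of the pathway, measured 7.98, 8.21, 7.82, 7.61 and 6.97 units at E13 and had none at E18. Wnt1 was listed at E13 alone, at 3.35, 5.01, 7.11, 20.7 and 24.2 units, highest in libraries 4 and 5. The target Axin2 did not pass (-0.05), whereas Apcdd1 fell by 2.5 and the inhibitor Sfrp1 rose by 2.27. The ligand co-factor Rspo2 fell from 18.6 to 37.6 units to 1.68 to 5.28.

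The inhibitors of differentiation, targets of BMP signals, fell unevenly. Id3 measured 2160, 1240, 2020, 2250 and 2340 units at E13 and 169, 138, 92, 149 and 141 at E18 (log2 difference -3.85, SE 0.21, limma adjusted p = 3.15e-12). Id1 and Id2 fell by 2.87 and 1.98, and Id4 overlapped and did not pass (-0.56). Among 15 BMP and Id genes tested, 5 fell and Bmp6 alone rose, by 1.44. For these counts and those of FGF below, 22.4% of all genes tested were higher and 25.0% lower. For FGF, 5 of 13 tested members fell and 1 rose: Fgfbp3, which releases the ligand from matrix, fell by 3.59 and Dusp6, a feedback phosphatase, by 1.25, while the feedback inhibitor Spry2 rose by 1.51 although E13 library 1 (52 units) lay inside the E18 range. The count of FGF members that fell was 2 or 3 without E13 library 1, 3 or 5 or E18 library 2 or 4.

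Among 13 Nfi and Sox factors tested, which include the gliogenic factors of the radial glia, 4 rose, 1 fell and 8 did not pass (median 0.55). Of all genes tested, 22.4% rose and 25.0% fell. Within E18, library 1 was the highest E18 library for 13 of the 15 listed members, where it was the highest for 29.1% of all genes listed at E18. Sox8 rose by 1.25, with overlap, and Sox3, of early neural progenitors, fell by 1.37.

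Genes of young neurons did not follow the proneural genes as a group. Of 25 tested, 8 fell, 2 rose (4 without E13 library 2) and 15 did not pass (median -0.29). Among all genes tested 25.0% fell and 22.4% rose. Sox11 measured 98.8 to 239 units at E13 and 23.7 to 34.6 at E18 (-2.40), and the RNA-binding protein Elavl4 fell by 2.20. Dcx, of migrating neurons, did not pass (-0.72, limma adjusted p = 0.129) but did without E13 library 5 (-0.95), and Gap43, of growing axons, rose by 1.89 with overlap. Genes of mature neurons rose in 14 of 21 tested, with 1 that fell, 6 that did not pass and a median of 1.89. Syp, of synaptic vesicles, measured 9.20, 15.7, 9.04, 5.24 and 7.52 units at E13 and 39.2, 71.6, 108, 43.1 and 76.9 at E18 (log2 difference 2.71, SE 0.36, limma adjusted p = 2.45e-06). Gad2, which makes the transmitter GABA, rose from 0 to 2.77 units to 6.59 to 16.6, while Slc17a6, the transporter of glutamatergic neurons, did not pass (-0.45). Camk2a was lower by 1.06 (limma adjusted p = 0.0471), a call lost under 13 of the 20 alternatives, among them the fits without E13 library 1, 3 or 5 or E18 library 1, 2, 3 or 4 (-0.74 to -1.1).

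Dopamine neuron genes varied more within an age than most lists. Th, the rate-limiting enzyme of dopamine synthesis, measured 85.4, 238, 81.2, 73.3 and 23.8 units at E13 and 19.8, 42.6, 110, 98.6 and 110 at E18, with overlap throughout (log2 difference -0.3, SE 0.77, limma adjusted p = 0.778). Ddc, the next enzyme, measured 157, 335, 122, 90.9 and 33.1 units and then 6.79, 18.9, 58.3, 92.6 and 121 (-1.52, limma adjusted p = 0.0611), and passed with a weight per library (-1.47) and without E13 library 5 (-1.96) or E18 library 4 (-1.83) or 5 (-1.92). Both were highest in E13 library 2 and lowest in E18 library 1. Nr4a2, a factor of dopamine neurons and their immediate precursors, did separate the ages, at 65.8 to 180 units and 5.43 to 12.2 (log2 difference -3.35, SE 0.36, limma adjusted p = 1.06e-07). Pitx3 fell by 2.29, and Calb1, a calcium buffer of a subset of dopamine neurons, rose by 3.01. In all, 3 of 13 tested members rose (5 without E13 library 2), 3 fell and 7 did not pass (median 0.14). These counts were close to the shares over all genes tested (22.4% higher and 25.0% lower). The call of Foxp2 (-0.63) was lost with median-of-ratios scaling (-0.57) and without E13 library 2 or 3 or E18 library 1, 3 or 4 (-0.4 to -0.62).

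Summed levels of a list in each library are carried by its most abundant members and are given to compare libraries. Dopamine neuron genes summed to 440, 1010, 421, 341 and 180 units in E13 libraries 1 to 5 and to 113, 216, 398, 374 and 546 at E18. Mitosis genes summed to 1530, 1380, 2230, 3320 and 2750 units at E13 and to 249 to 358 at E18. At E13 the libraries lowest in dopamine genes, 4 and 5, were the highest in mitosis genes. Mature neuron genes summed to 835 to 1980 units at E13 and 1390 to 2620 at E18. Axoneme genes summed to 730 to 1160 units at E13 and 10100 to 13900 at E18. The 34 axoneme genes listed at E18 alone add to the sum at E18 and nothing at E13. Fate regulators summed to 295 to 483 and 412 to 841 units, where E18 library 3 (412) lay inside the E13 range.

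**Figure D5:**
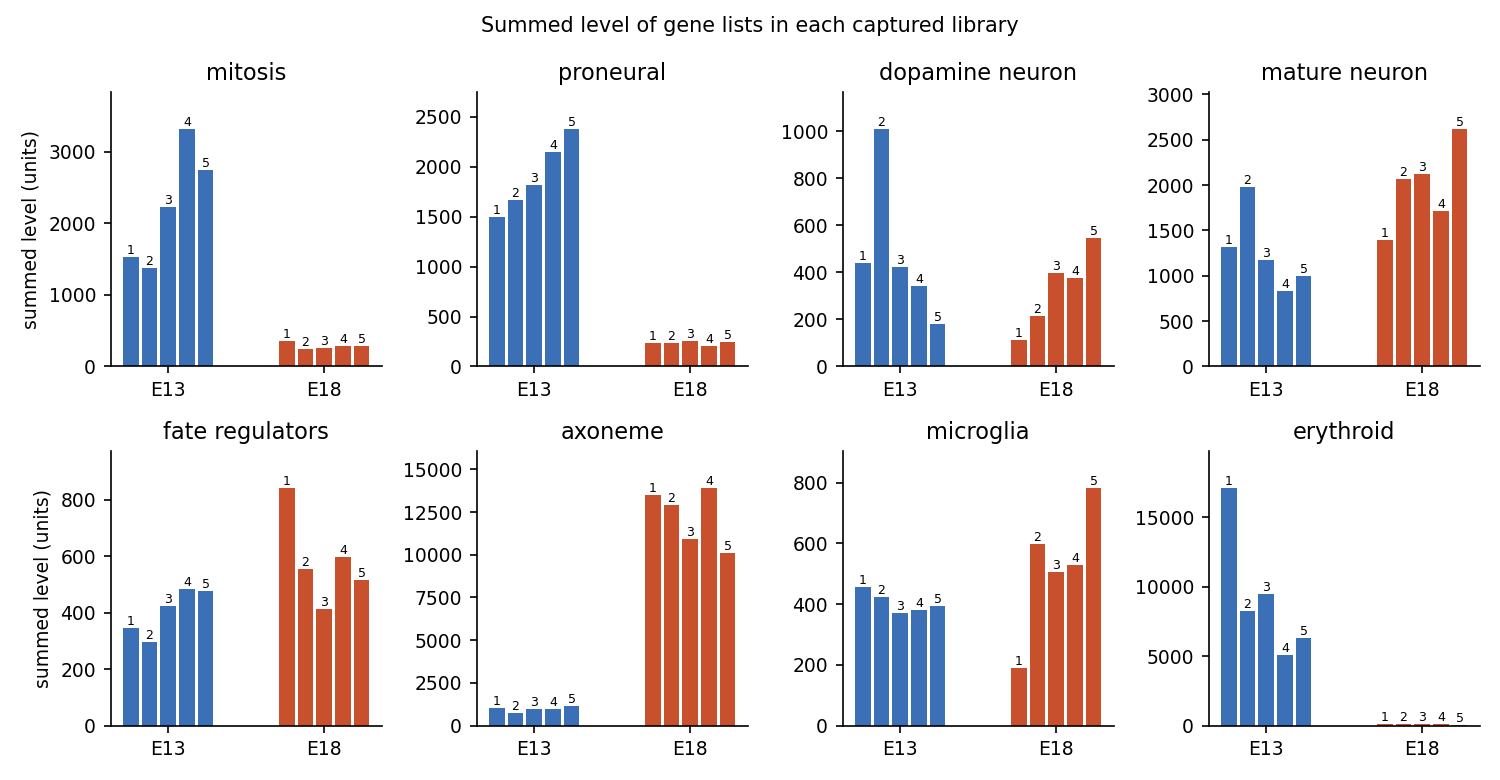
Each panel gives the summed units of one gene list in each captured library, as bars from 0, with E13 libraries 1 to 5 on the left and E18 libraries 1 to 5 on the right. Mitosis, proneural and erythroid sums are lower in every E18 library than in every E13 library, axoneme sums are higher, and dopamine neuron, mature neuron, fate regulator and microglia sums overlap.

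Of 32 genes of sterol and fatty acid synthesis, 23 rose, 1 fell and 8 did not pass (median 0.75). For this count and that of glycolysis below, 22.4% of all genes tested rose and 25.0% fell. Scd2, a desaturase of the brain, measured 177, 157, 144, 106 and 131 units at E13 and 489, 529, 482, 463 and 455 at E18 (log2 difference 1.77, SE 0.15, limma adjusted p = 2.32e-09), and Fads2, a desaturase of polyunsaturated fatty acids, rose by 1.81. Acly fell by 0.55, a call lost under quantile normalization (-0.36). Of 21 glycolysis genes, 13 rose, 3 fell and 5 did not pass (median 0.88). Aldoa measured 226 to 344 units at E13 and 904 to 1310 at E18 and the lactate transporter Slc16a1 rose by 2.97, while Ldhb fell by 1.71 and Pkm by 0.82. Gapdh, whose many copies make its level uncertain, was listed at 6.28 to 40.9 units and differed by -1.08, a call lost without E13 library 3 or 5 or E18 library 2 (-0.85 to -0.94).

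Nuclear-encoded subunits of the respiratory chain fell in 54 of 74, and none rose (median -0.71). Over all genes tested, 25.0% fell and 22.4% rose. Atp5b, of the ATP synthase, measured 847, 902, 1230, 992 and 1050 units at E13 and 346, 441, 523, 402 and 425 at E18 (log2 difference -1.23, SE 0.13, limma adjusted p = 1.16e-07). Atp5j and Atp5a1 fell by 1.04 and 1.05, each without overlap. Under quantile normalization 33 were called lower. Short transcripts were lower at E18 in general: the median difference was -0.29, -0.13, 0.004 and 0.14 from the shortest to the longest of 4 equal length classes of 11238 genes with a known length, and 36.0% of the shortest class passed as lower against 14.2% of the longest. Of the 74 subunits, 61 lay in the shortest class. The part of transcript length in this fall was not tested.

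Genes of fetal growth and of chromatin fell in 12 of 20 tested (median -0.92), against 25.0% of all genes tested. Dnmt3a, a DNA methyltransferase, alone rose (0.78), a call lost without E13 library 4 (0.62) or without E18 libraries 1 and 3 (0.67). Mest, an imprinted gene, measured 179, 185, 671, 883 and 823 units at E13 and 37.6, 30.3, 12.3, 25.2 and 35.5 at E18. E13 libraries 1 and 2 were far below the other 3 and still above all E18 libraries. The imprinted RNA H19 fell by 3.25, and Ezh2, of the polycomb complex, by 2.12. Igf2bp3, a fetal RNA-binding protein, fell by 2.08, and its relative Igf2bp1 was listed at E13 alone, at 4.35 to 6.63 units.

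Genes listed at one age were 1543 at E18 and 584 at E13. Of the 1543, 876 had a mean of at least 2 units, 347 of at least 5 and 42 of at least 50, and 1119 were also listed at P70 against 260 at E11. Of the 584, 267 had a mean of at least 2 units, 86 of at least 5 and 6 of at least 50, and 410 were also listed at E11 against 172 at P70. Npy, the neuropeptide Y gene, measured 95.5, 301, 372, 234 and 295 units at E18 and was not listed at E13, and it was lowest in library 1. Fam216b, Odf3b and Entpd2, the last an ATP-cleaving surface enzyme, had means of 251, 220 and 182 units at E18, and Odf3b had 1370 at P70 while Entpd2 had 17.0. Tnnt3, a troponin of fast muscle, was listed at both ages but rose from 0.984 to 3.30 units to 148 to 307 (6.53). Igfbpl1, a secreted protein of newborn neurons, measured 62.6 to 94.8 units at E13 and had values at no later age.

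Markers of other cell types were present and differed between ages. Of 15 erythroid genes, 3 were listed at both ages, 4 at E13 alone and 8 at neither. Hbb-y, the embryonic beta-like globin, measured 13200, 6140, 7520, 3550 and 5320 units at E13 and 0.863, 4.81, 1.95, 3.82 and 0 at E18. Hba-x, Hbb-b1 and Hbb-bh1 were among those listed at E13 alone. The erythroid sum ran from 5060 to 17100 units at E13, or 0.693% to 2.38% of all units, and from 78.8 to 128 at E18, or 0.013% to 0.0207%. Globins share sequence, so the split among them is uncertain. Of 23 microglia and macrophage genes, 21 were in the table, and their sum was 372 to 457 units at E13 and 191 to 782 at E18. Laptm5 rose by 1.38, Pf4, of macrophages, fell by 4.09, and 14 of 19 tested did not pass. Of those 19, 4 rose and 1 fell, beside 22.4% and 25.0% of all genes tested. The 4 that rose became 7 without E18 library 1 and 1 or 2 without E13 library 4 or 5 or E18 library 2, 4 or 5. Cx3cr1 was at 1.33 to 3.67 and 1.63 to 7.56 units, and Itgam, Mrc1 and Ptprc were listed at neither age.

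Endothelial and mural genes summed to 187 to 239 units at E13 and 112 to 186 at E18, with 10 of 14 tested lower (6 without E13 library 4 or E18 library 4), Vtn alone higher, and Flt1, Tie1 and Tek listed at neither age. Fibroblast and meninges genes summed to 55.0 to 118 and 25.3 to 44.8 units, with 4 of 9 tested lower (2 without E18 library 2 or 4). Of oligodendrocyte genes, Olig1, Olig2, Sox10 and Pdgfra were listed at E18 alone, Mag and Mog at neither age, and the sums were 31.3 to 47.5 and 199 to 239 units. Of 6 oligodendrocyte genes tested, 3 rose, 1 fell and 2 did not pass. Cnp rose by 3.88, from a mean of 7.3 units to 123, a large part of the sum at E18. Bcas1 fell by 0.81, without overlap between ages. Of 16 choroid plexus genes, 8 had values at neither age, Ttr among them, and the sums were 310 to 487 and 144 to 250 units. Otx2 had the highest mean of these at E13 (186 units) and Enpp2, a secreted lipid enzyme, at E18 (85.3 units). Otx2 and Lmx1a (means of 60.3 units at E13 and 22.6 at E18) are also among the floor plate and midbrain genes above. They make up much of the E13 sums, so these sums do not stand for choroid plexus alone. Among 12 tested genes of early response and heat shock, 3 rose and 2 fell, and Egr1 and Atf3 were listed at E18 alone. For these counts and those of the cell types above, 22.4% of all genes tested were higher and 25.0% lower. The part of these cells and responses in the differences above was not tested.

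Within E18, library 1 stood at an end of many lists at once. It was the highest for 71.0% of the fate regulators, 62.9% of the dynein genes and 65.7% of the astrocyte genes, and the lowest for 14 of 19 microglia, 11 of 15 dopamine neuron and 52 of 74 respiratory chain genes. Over all genes listed at E18 it was the highest for 29.1% and the lowest for 19.8%. Of the 11 fate regulators listed at E18 alone, 10 still had a mean of at least 1 unit without it, and Gmnc did not. Library 3 had the lowest mean correlation with the other E18 libraries, 0.923 against 0.938 to 0.957. It was the lowest for 14 of 31 fate regulators (45.2%), 65.7% of dynein genes and 70.4% of ependymal genes, against 35.2% of all genes listed at E18. For mature neuron genes it was the highest in 53.8%, against 26.6% of all genes.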

How the data were processed

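Laser-captured mouse floor plate RNA was amplified by Smart-seq2 with 15 cDNA cycles and cut with Tn5, per the labels' protocols, with no molecular identifiers and no mark of strand. Reads of overlapping or antisense genes therefore cannot be told apart. The tools and builds STAR 2.3, Salmon 1.6.0, DESeq2 1.34.0, mm10 and GRCm39 appear, per the submitters' processing notes, with no statement of what each did. For counting and annotation, the sources used here give no details.

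The authors deposited other values than counts, with decimal commas and no stated unit. They behave as RPKM, since low values are whole multiples of a step set by gene and library. Reads were recovered within 0.01 reads of a whole number for 11311 of 14997 genes (75.4%), and on simulated data for 99.7% of 10706 genes. A further 142 lines with 11 repeated symbols were left out, 21 symbols turned into dates were kept, and 0 columns were left out.

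Libraries were grouped by the labels' age. limma 3.58.1 (R 4.3.3) was fitted on log2(value + 1) to 20 libraries with a mean per age and a trend in the prior variance. Tested on simulated data (11797 genes), it recovered 75.8% of genes changed by a fold of 4, 38.8% at 2 and 11.9% at 1.5, with 4 calls among 11597 unchanged genes. In that simulation 11597 of the 11797 genes were unchanged, whereas 5592 were called in the data (47.4%). The Benjamini-Hochberg cutoff on p was therefore stricter in the simulation, so these recoveries do not measure the power reached in the data. Genes that missed the threshold may differ all the same. No list was tested as a set. Some list members are counted but not reported here by name.

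The members and the 34 lists (948 of 1003 genes matched, 41 through older symbols) were chosen with earlier results of these data known. The rule for named genes took a core set, up to 3 further members per list and direction by p, the 10 largest rises and falls with a mean of at least 5 units and no overlap, and the 10 highest genes listed at one age. Genes named outside it are list members chosen after their values were seen. Alternatives changed the pseudocount, the minimum mean, the libraries fitted, weights, scaling, the trend, the replicate block and each library. Promoters, coordinates and lengths came from RefSeq and gene annotation of GRCm38. Python 3.11.15 with pandas 2.3.3, numpy 2.4.6 and matplotlib 3.10.9 was used.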

Additional observations from a re-analysis of the deposited data

Results flagged for a closer look

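Among 72 summed levels and depths examined, in which chance sets apart about 1 in 20 groups of 5 libraries, 3 had a library far from the other 4. BMP pathway and Id genes summed to 1630 units in E13 library 2, against 2550 to 2860 in the other E13 libraries. FGF pathway genes summed to 308 units in E18 library 1, against 217 to 241 in the others. Endothelial and mural genes summed to 112 units in E18 library 1, against 166 to 186 in the others.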

How the results depend on the processing

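Across the alternatives, 2275 to 3244 genes were higher at E18 and 2575 to 3717 lower, all within 1.5 times the reported counts. Leaving out 1 library gave 2320 to 2606 higher and 2623 to 2853 lower, and leaving out E18 libraries 1 and 3 together, chosen after seeing the data, gave 2290 and 2575. Of 201 named genes past the threshold, 179 passed under every alternative that could be run and 22 were lost under at least 1. Genes listed at E18 alone came to 876 and 347 with a mean of at least 2 and 5 units, and those at E13 alone to 267 and 86. Median-of-ratios scaling gave 2817 higher and 2682 lower. The 6 named genes whose sign changed had not passed. Without 1 library in turn, Msx1 ranged from -0.25 to 0.504, Corin from -0.065 to 0.101, Th from -0.718 to 0.111, Slc18a2 from -0.487 to 0.49 and Axin2 from -0.323 to 0.09. Slc18a2 was 0.125 with a weight per library and 0.596 without E18 libraries 1 and 3, where Msx1 was -0.124, and Cd24a was 0.195 under quantile normalization. The cause was not tested. Deviations of same-numbered libraries correlated at -0.146 to 0.239, within the range of all pairs (-0.271 to 0.311). These values cannot settle whether the numbers mark a shared animal or batch, and no label says so. The replicate block gave 2741 higher and 3114 lower. Depth limits genes near 1 unit most, and a gene absent at an age may lie just below that floor.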
